A study of Mus musculus with 36 samples.

Results

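The counts of 7 globin genes and 2 genes of red cell precursors were read out in RNA-seq libraries of embryonic mouse forebrain. The globins were Hbb-y, Hbb-bh1, Hba-x, Hba-a1, Hba-a2, Hbb-bt and Hbb-bs, and the other 2 genes were Alas2 and Slc4a1. The 9 genes were chosen by name from the 46603 genes of the count tables as a readout of the blood in each dissected tissue and of the balance between embryonic and adult globins. The study varied the dose of Chd8, which encodes a chromatin remodeller, in C57BL/6J mice. At E12.5, neocortex of single embryos was sequenced from 4 genotypes, with 3 libraries each: Chd8 +/+, Chd8 +/- (1 null allele), Chd8 neo/neo (2 hypomorphic alleles that carry a selection cassette) and Chd8 neo/- (1 hypomorphic over 1 null allele). The null allele came from germline deletion with a beta-actin Cre, so that every cell of an embryo, blood cells included, carried these genotypes. At E10.5, telencephalic vesicles of cKO embryos (Sox1-Cre, Chd8 f/f) were set beside Ctrl embryos, with 3 libraries each. The labels give the Ctrl embryos as a mix of Chd8 f/f and Chd8 f/+, whereas the study's text describes its controls as Chd8 f/f. RNA of 2 embryos was pooled in each E10.5 library. Sox1-Cre acts in the neuroepithelium, and blood cells do not derive from it.

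Haemoglobin pairs alpha-type with beta-type globin chains around haem. The first red cells of a mouse embryo, primitive erythrocytes, form in the yolk sac, enter the blood with a nucleus and keep maturing there. They make the embryonic chains Hba-x (zeta), Hbb-bh1 (beta-h1) and Hbb-y (epsilon-y), with Hbb-bh1 declining before Hbb-y, and they take up adult alpha chains early. Definitive red cells follow from the fetal liver and make the adult chains, encoded by Hba-a1 and Hba-a2 on the alpha side and by Hbb-bt and Hbb-bs on the beta side. Alas2 encodes the erythroid enzyme for the first step of haem synthesis, and Slc4a1 encodes band 3, the anion exchanger of the red cell membrane. Neural tissue is not a known source of these transcripts in quantity, so in bulk forebrain they report mainly the blood left in the vessels.

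The beta-type genes lie together on chromosome 7 of GRCm38, on the minus strand, with Hbb-y at chr7:103851745-103853240, Hbb-bh1 at chr7:103841636-103843164, Hbb-bs at chr7:103826534-103828096 and Hbb-bt at chr7:103812524-103813996. The alpha-type genes lie together on chromosome 11, on the plus strand, with Hba-x at chr11:32276400-32278116, Hba-a1 at chr11:32283511-32284465 and Hba-a2 at chr11:32296489-32297298. Slc4a1 is elsewhere on chromosome 11 (chr11:102348824-102366203, minus strand) and Alas2 is on the X chromosome (chrX:150547375-150570638, plus strand).

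The sequences that precede the start sites are shown for 5 globins, because the members of these clusters diverged in the data. They are the 250 bases upstream of the RefSeq start on GRCm38.p6, which listed 7 of the 9 genes. The gene spans given above cover all annotated transcripts and reach beyond these RefSeq starts, so each of the 5 windows lies partly inside its span. Capitals mark, on either strand, the CACCC motif, the CCAAT box, the TATAA element and 4 GATA words (AGATAA with its variant AGATAG, and TGATAA with its variant TGATAG), the classes of element through which globin promoters are known to work.
Hbb-y (chr7:103853208-103853457, minus strand): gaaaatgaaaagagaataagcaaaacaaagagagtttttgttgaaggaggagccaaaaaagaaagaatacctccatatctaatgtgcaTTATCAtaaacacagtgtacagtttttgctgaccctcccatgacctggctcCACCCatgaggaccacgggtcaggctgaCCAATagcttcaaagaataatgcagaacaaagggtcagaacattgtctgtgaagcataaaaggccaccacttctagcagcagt
Hba-x (chr11:32276350-32276599, plus strand): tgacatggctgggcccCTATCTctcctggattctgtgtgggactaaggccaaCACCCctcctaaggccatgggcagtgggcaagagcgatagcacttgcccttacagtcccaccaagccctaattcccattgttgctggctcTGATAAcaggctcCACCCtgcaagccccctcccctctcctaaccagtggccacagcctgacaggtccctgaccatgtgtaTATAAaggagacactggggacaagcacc
Hba-a1 (chr11:32283422-32283671, plus strand): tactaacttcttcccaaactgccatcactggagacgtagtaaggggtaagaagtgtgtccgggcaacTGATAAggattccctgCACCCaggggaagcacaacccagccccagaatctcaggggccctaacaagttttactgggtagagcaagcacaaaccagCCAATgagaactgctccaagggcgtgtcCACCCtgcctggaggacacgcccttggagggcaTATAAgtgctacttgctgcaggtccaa
Hbb-bt (chr7:103813924-103814173, minus strand): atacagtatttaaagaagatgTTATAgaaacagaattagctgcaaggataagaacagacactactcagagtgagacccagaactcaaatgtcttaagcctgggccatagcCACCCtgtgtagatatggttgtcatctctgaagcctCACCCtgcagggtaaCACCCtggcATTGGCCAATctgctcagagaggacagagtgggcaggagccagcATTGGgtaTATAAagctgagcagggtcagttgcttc
Hbb-bs (chr7:103827929-103828178, minus strand): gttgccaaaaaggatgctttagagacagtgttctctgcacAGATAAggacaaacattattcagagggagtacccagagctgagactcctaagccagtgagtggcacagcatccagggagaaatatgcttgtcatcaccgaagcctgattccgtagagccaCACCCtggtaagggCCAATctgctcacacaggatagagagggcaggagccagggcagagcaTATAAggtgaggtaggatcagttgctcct

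All 5 windows held CACCC, which 52.0% of the 32851 RefSeq windows of this length held. CCAAT was in the windows of Hbb-y, Hba-a1, Hbb-bs and Hbb-bt (3 times in the last) and not in that of Hba-x, against 33.8% of all windows. A GATA word was in every window but that of Hbb-bt, against 26.5% of all windows. TATAA was in every window but that of Hbb-y, against 22.8%. The promoter of Hba-a2 shared an unbroken run of 297 of 300 bases with that of Hba-a1, and is not printed. Hbb-bt and Hbb-bs, also adult paralogs, shared no run longer than 14 bases in the same window.

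Library totals ran from 38774591 to 61051667 counts at E12.5 and from 49632937 to 68488879 at E10.5. Chd8 itself ran from 235 to 239 CPM (read counts scaled to library size, by edgeR's trimmed-mean method) in Chd8 +/+, 203 to 213 in Chd8 neo/neo, 165 to 170.2 in Chd8 +/-, 142 to 158 in Chd8 neo/-, 160.0 to 184 in Ctrl and 116 to 125 in cKO, so every E12.5 library of another genotype was below those of Chd8 +/+, and every cKO library was below Ctrl. The order did not follow the number of wild-type alleles, since Chd8 neo/neo, which has none, was above Chd8 +/-. These counts run over the whole gene and do not separate full-length transcripts from those spliced into the cassette or those of a null allele, so they are a weak check of the Chd8 neo/neo label. The labelled tissue was checked on 13 forebrain markers (among them Emx1 and Pax6), whose CPM summed to 4384 to 4922 at E12.5 and 1507 to 1832 at E10.5. Neurod6, a marker of neurons, was at 0 in every E10.5 library, and no other of the 13 was at 0. The members were well covered. Their lowest count in any library was 82, for Hbb-bs in 1 Ctrl library.

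Hba-a1 and Hba-a2 cannot be read with the precision of the others. Each library was sequenced in 2 runs, so both runs read the same RNA. The 11932 genes with a mean of at least 100 counts over the E12.5 libraries in each run were compared. Across them, the largest depth-corrected difference between the 2 runs of a library had a median of 1.10-fold, and only 11 genes passed 2-fold. Hba-a2 led that ranking at 33.1-fold and Hba-a1 ranked 3rd at 5.51-fold. In Chd8 neo/- replicate 3, Hba-a2 had 144 counts in one run and 4553 in the other. In Chd8 neo/neo replicate 1 it had 2166 and 151. Hba-x from the same cluster differed by at most 1.01-fold between runs. At E10.5 both genes agreed between runs, within 1.03-fold for Hba-a1 and 1.07-fold for Hba-a2. Of all 75-base windows in their transcripts, 32.1% were found in Hba-a1 alone and 15.4% in Hba-a2 alone, and the remainder occurs in more than 1 gene. Reads that map to several places were not counted at E12.5. The adult beta genes also share sequence, with 43.4% of windows particular to Hbb-bt and 48.5% to Hbb-bs, but their runs differed by at most 1.11-fold and 1.27-fold. Alas2 has 90.1% of its windows to itself and overlaps Apex2, and the other 4 members have all of theirs. Whether the shared windows produced the run differences was not tested. Results that rest on Hba-a1 or Hba-a2 at E12.5 are given with and without them.

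**Figure D1:**
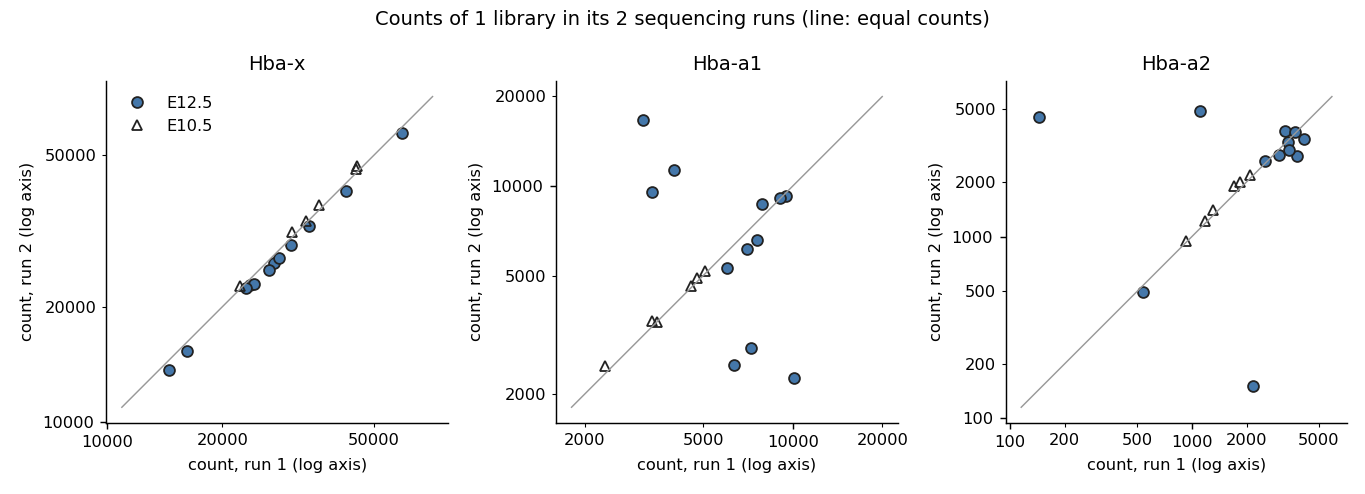
Counts of Hba-x, Hba-a1 and Hba-a2 in run 1 (horizontal, log axis) and run 2 (vertical, log axis), 1 point per library, filled circles at E12.5 and open triangles at E10.5, with a line at equal counts. Hba-x follows the line at both stages, whereas several E12.5 points of Hba-a1 and Hba-a2 lie far from it, such as the library with 144 and 4553 counts of Hba-a2.

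Hbb-y had the highest level per length of the 9 transcripts at E12.5. Per kilobase of transcript, Hbb-y stood at 2974 ± 338 CPM in Chd8 +/+ (mean ± SD, n = 3), Hba-x at 944 ± 141, Hba-a1 at 379 ± 48.7, Hbb-bh1 at 241 ± 44.9, Hba-a2 at 228 ± 18.1, Hbb-bt at 121 ± 9.49 and Hbb-bs at 52.4 ± 3.27. The 2 genes outside the globin family were lower, with Slc4a1 at 16.6 ± 3.10 and Alas2 at 11.97 ± 1.76 CPM per kilobase. The neighbours Hbb-bh1 and Hba-a2 differed by less than their SD. At E10.5 in Ctrl the order per kilobase was Hbb-y (2812 ± 769), Hbb-bh1 (1813 ± 445), Hba-x (1204 ± 265), Hba-a1 (162 ± 49.4), Hba-a2 (74.6 ± 25.4) and Hbb-bt (23.8 ± 11.5), followed by Alas2 (16.1 ± 3.67), Slc4a1 (14.9 ± 2.22) and Hbb-bs (2.92 ± 1.29). Alas2 and Slc4a1 differed there by less than their SD. Embryonic chains held the top of both lists on this scale, which divides by the whole length although few windows of Hba-a1 and Hba-a2 are their own. Per unique window, the pair made up 74.4 ± 3.74% of alpha globin in Chd8 +/+ and 45.3 ± 2.51% in Ctrl (mean ± SD, n = 3). On that scale the pair stood above Hba-x at E12.5. The scale assumes that reads mapping to several places were not counted, which is not known at E10.5. It also takes each read by itself, although fragments of read pairs were counted at E12.5. Hbb-bs went from last place at E10.5 to a level above Slc4a1 and Alas2 at E12.5.

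**Figure D2:**
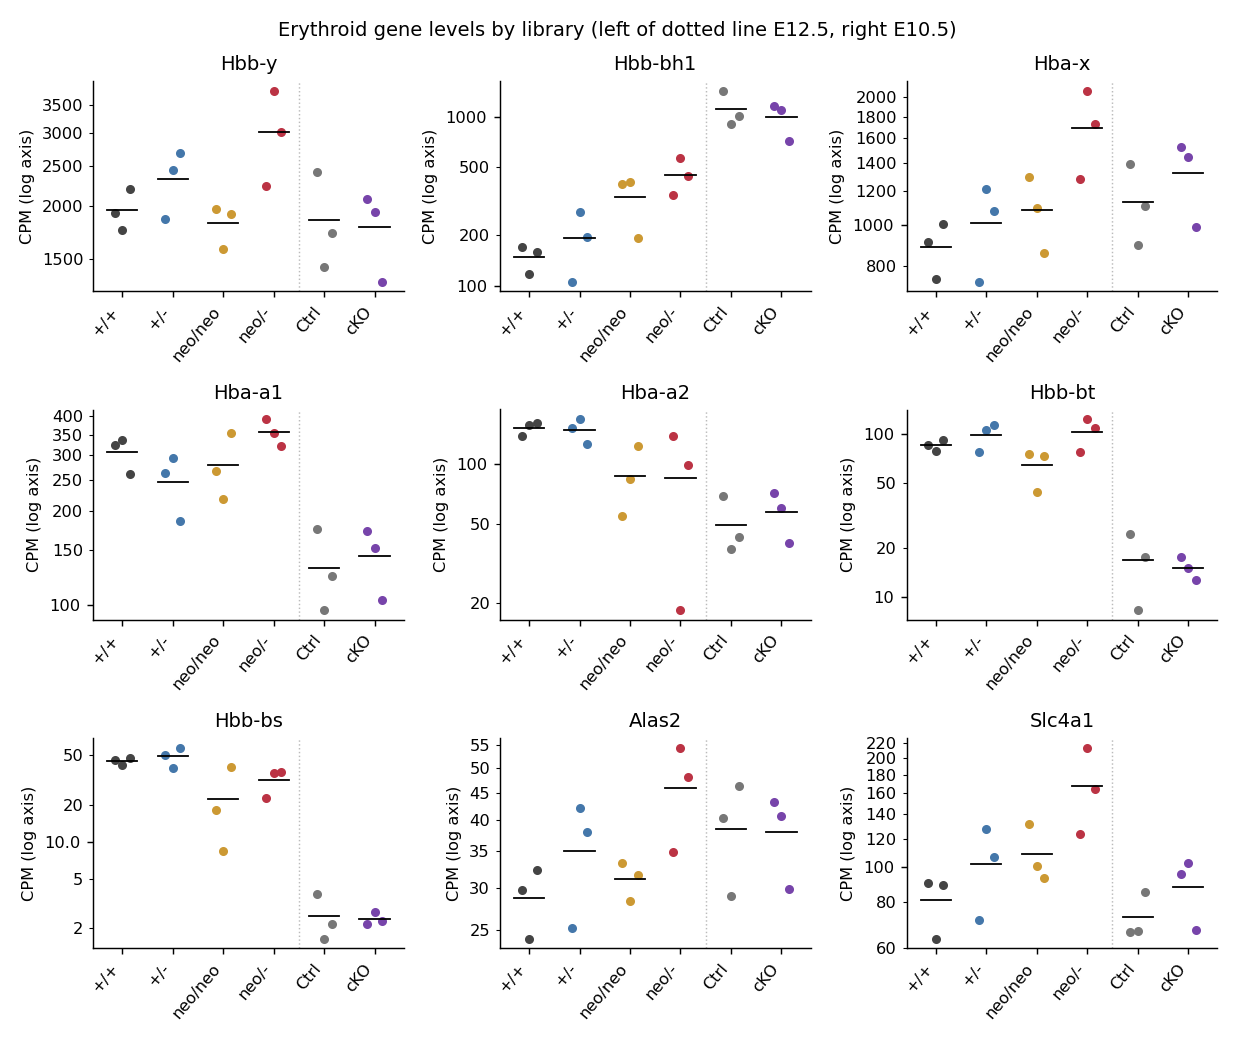
CPM of each of the 9 genes by library (vertical, log axis, a panel per gene), with the 4 E12.5 genotypes left of the dotted line and Ctrl and cKO right of it. Points are libraries and bars are means of 3. The 3 Chd8 neo/- points of Hbb-y, Hba-x, Alas2 and Slc4a1 lie above the 3 Chd8 +/+ points, and Hbb-bh1 falls while Hbb-bt and Hbb-bs rise from E10.5 to E12.5.

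The control tissues of the 2 stages, Chd8 +/+ at E12.5 and Ctrl at E10.5, gave the normal course of the globins. Adult chains rose, Hbb-bh1 fell and Hbb-y, Hba-x, Alas2 and Slc4a1 were not called different. Of the 9 genes, 5 were called at an edgeR adjusted p under 0.05 (the rule for every call here), 4 higher and 1 lower, where 69.9% of the 19565 genes tested were called, 34.0% higher and 35.9% lower. The 3 libraries of the stages did not overlap for 4 genes that were higher and 1 that was lower, where this held for 34.4% and 36.4% of all genes tested. The stages also differed in dissection, allele background, embryos per library and count table, which cannot be told apart from age.

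Hbb-bs, an adult beta chain, had 3.76, 1.63 and 2.16 CPM in the Ctrl libraries and 45.9, 42.1 and 47.6 CPM in the Chd8 +/+ libraries. The groups did not overlap, and the edgeR log2 fold change was 4.17 (SE 0.51, adjusted p = 8.11e-06). Its neighbour Hbb-bt had 24.5, 8.30 and 17.5 CPM in Ctrl and 85.6, 78.2 and 91.5 CPM in Chd8 +/+, again without overlap, with a log2 fold change of 2.35 (SE 0.34, adjusted p = 4.07e-05). The adult alpha genes also rose. Hba-a1 had 175, 96.0 and 123 CPM in Ctrl and 325, 335 and 262 in Chd8 +/+, without overlap (log2 fold change 1.24, SE 0.27, adjusted p = 0.00103). Hba-a2 had 69.0, 37.4 and 42.9 and 139, 157 and 161 CPM, without overlap (log2 fold change 1.63, SE 0.55, adjusted p = 0.0183). From run 2 alone neither alpha gene was called, and Hba-a2 was not called without Ctrl replicate 2, without Ctrl replicate 3 or from run 1 alone. Hbb-bh1, the embryonic chain that declines first, had 1424, 908 and 1008 CPM in Ctrl against 169, 117 and 159 CPM in Chd8 +/+. All 3 early libraries were above all 3 later ones, and its log2 fold change was -2.90 (SE 0.40, adjusted p = 2.37e-05). Hbb-y, by contrast, had overlapping values, 2421, 1431 and 1724 CPM in Ctrl and 1934, 1760.3 and 2204 CPM in Chd8 +/+, with an interval of 2 SE from -0.39 to 0.57 on the log2 scale. Hba-x (-0.34, SE 0.26), Alas2 (-0.41, SE 0.23) and Slc4a1 (0.17, SE 0.26) were likewise not called. Alas2 was called lower without Ctrl replicate 2 (log2 fold change -0.59, edgeR adjusted p = 0.0428).

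The total of the globins overlapped between the stages, while their makeup did not. The 7 globins together held 0.555, 0.342 and 0.407% of all counts in the Ctrl libraries and 0.365, 0.320 and 0.386% in the Chd8 +/+ libraries. Levels per length were then compared within each library, which leaves out how much blood it held. Hbb-y made up 61.2, 59.4 and 61.4% of the embryonic beta chains (Hbb-y plus Hbb-bh1) in Ctrl and 91.4, 93.3 and 92.8% in Chd8 +/+. The adult share of beta globin (Hbb-bt plus Hbb-bs, of all 4 beta chains) was 0.651, 0.375 and 0.640% in Ctrl and 5.18, 5.31 and 4.91% in Chd8 +/+. The adult share of alpha globin (Hba-a1 plus Hba-a2, of all 3 alpha chains) was 17.7, 15.5 and 15.5% and 38.6, 45.0 and 34.5%. None of these 3 shares overlapped between the stages, and a test of 3 against 3 libraries cannot go below an exact permutation p of 0.10, which each of them reached (two-sided, 0.222 after Benjamini-Hochberg adjustment over the 40 tests of this kind). Within the adult beta chains the makeup moved as well, Hbb-bs being 11.1, 13.8 and 9.16% of the pair in Ctrl and 30.4, 30.5 and 29.8% in Chd8 +/+, a measure added after the values were seen. Because only part of the adult genes can be told apart by a read, a second scale was used. Per unique 75-base window instead of per length, the adult share of beta globin was 1.22 ± 0.341% in Ctrl and 10.6 ± 0.40% in Chd8 +/+, and that of alpha globin 45.3 ± 2.51% and 74.4 ± 3.74% (mean ± SD, n = 3). The Ctrl values on this scale assume that reads mapping to several places were left out at E10.5, which is not known.

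**Figure D3:**
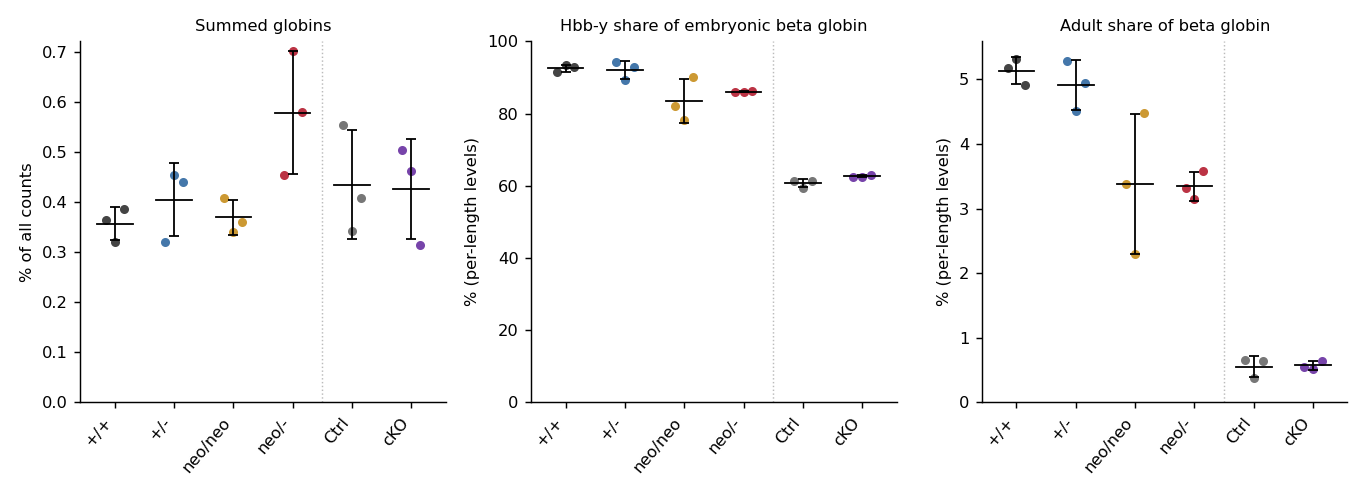
Left, the 7 globins as a percent of all counts. Middle, Hbb-y as a percent of Hbb-y plus Hbb-bh1. Right, Hbb-bt plus Hbb-bs as a percent of all 4 beta chains, the last 2 from per-length levels. Points are libraries by group, bars the mean and SD of 3. The mean of the summed globins is highest in Chd8 neo/-, and both shares are lower in Chd8 neo/neo and Chd8 neo/- than in Chd8 +/+ and far lower at E10.5.

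Among the E12.5 genotypes, calls were made in Chd8 neo/-, for embryonic globins and a red cell membrane gene. Against Chd8 +/+, Hbb-bh1, Hba-x and Slc4a1 were called higher and none of the 9 lower, where 11.5% of the 18810 genes tested were called, 5.48% higher. The 3 libraries of the groups did not overlap for 7 of the 9 genes (5 higher, 2 lower), where 16.4% of all genes tested were higher and 16.9% lower without overlap. The 2 lower genes were Hbb-bs and Hba-a2, the latter with the run differences described above. The medians of the log2 fold changes were 0.62 over the 9 genes and 0.00 over all genes. In bulk tissue a higher level can mean more red cells or more transcript in each, and these cannot be told apart. The comparisons of Chd8 +/-, Chd8 neo/neo and Chd8 neo/- with Chd8 +/+ share the same 3 Chd8 +/+ libraries.

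Hbb-bh1 had 169, 117 and 159 CPM in Chd8 +/+, 105, 272.6 and 193 in Chd8 +/-, 399.5, 409 and 192 in Chd8 neo/neo and 341, 569 and 444 in Chd8 neo/-. Both groups with no wild-type allele lay wholly above Chd8 +/+, and Chd8 +/- overlapped it. For Hbb-bh1 the log2 fold changes against Chd8 +/+ were 1.61 (SE 0.41, adjusted p = 0.0425) in Chd8 neo/-, 1.17 (SE 0.41, adjusted p = 0.121) in Chd8 neo/neo and 0.36 (SE 0.41, adjusted p = 0.948) in Chd8 +/-, of which only the first was called by edgeR. DESeq2 also called Chd8 neo/neo (adjusted p = 0.0206). Hbb-y, the later embryonic beta chain, had 1934, 1760.3 and 2204 CPM in Chd8 +/+, 1865, 2441 and 2686 in Chd8 +/-, 1973, 1582 and 1913 in Chd8 neo/neo and 2242, 3793 and 3014 in Chd8 neo/-. The Chd8 neo/- libraries were above those of Chd8 +/+ and of Chd8 neo/neo, without a call in either edgeR comparison. The log2 fold changes were 0.62 (SE 0.20, adjusted p = 0.0806) and 0.73 (SE 0.20, adjusted p = 0.484). In Chd8 neo/neo, where Hbb-bh1 was high, Hbb-y was at the Chd8 +/+ level (-0.11, SE 0.20).

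Hba-x, the embryonic alpha chain, had 908, 743 and 1005 CPM in Chd8 +/+, 732, 1214 and 1079.5 in Chd8 +/-, 1299, 1094 and 856 in Chd8 neo/neo and 1284, 2075 and 1733 in Chd8 neo/-. Chd8 neo/- was above Chd8 +/+ in all libraries and was called by edgeR (log2 fold change 0.94, SE 0.25, adjusted p = 0.0433), whereas Chd8 neo/neo overlapped both (0.29 (SE 0.25) against Chd8 +/+). The adult alpha genes carry the run differences described above. Hba-a1 had 325, 335 and 262 CPM in Chd8 +/+ and 392, 353 and 322 in Chd8 neo/-, with 263, 294 and 186 in Chd8 +/- and 267, 218 and 353 in Chd8 neo/neo. Its log2 fold changes against Chd8 +/+ were -0.31 (SE 0.21) in Chd8 +/-, -0.14 (SE 0.21) in Chd8 neo/neo and 0.21 (SE 0.21) in Chd8 neo/-, and the last ran from -0.71 to 0.97 over the alternatives tried. Hba-a2 had 139, 157 and 161 CPM in Chd8 +/+, 152, 169 and 126 in Chd8 +/-, 54.7, 84.7 and 124 in Chd8 neo/neo and 138, 18.4 and 98.8 in Chd8 neo/-. In the summed runs the Chd8 neo/neo and Chd8 neo/- libraries lay below Chd8 +/+ without overlap, neither with a call. The log2 fold changes were -0.79 (SE 0.60) in Chd8 neo/neo and -0.84 (SE 0.60) in Chd8 neo/-. The highest Chd8 neo/- value was 138.4 CPM and the lowest Chd8 +/+ value 138.6. Counts of single runs, not scaled to depth, overlapped. In run 2, Chd8 neo/- replicate 3 had 4553, and Chd8 +/+ had 3820, 3299 and 3438. In run 1, Chd8 neo/neo replicate 3 had 3803, and Chd8 +/+ had 3261, 3357 and 4152.

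Neither adult beta gene was called in an E12.5 comparison of all libraries by edgeR. Hbb-bt had 85.6, 78.2 and 91.5 CPM in Chd8 +/+, 76.6, 105 and 113 in Chd8 +/-, 74.6, 43.8 and 73.0 in Chd8 neo/neo and 76.8, 123 and 108 in Chd8 neo/-. Chd8 neo/neo was below Chd8 +/+ and Chd8 +/- without overlap, and Chd8 neo/- overlapped Chd8 +/+. In Hbb-bt the log2 fold changes against Chd8 +/+ were -0.42 (SE 0.25) in Chd8 neo/neo and 0.27 (SE 0.25) in Chd8 neo/-. Hbb-bs had 45.9, 42.1 and 47.6 CPM in Chd8 +/+, 49.9, 39.5 and 57.9 in Chd8 +/-, 18.05, 8.46 and 40.0 in Chd8 neo/neo and 22.4, 36.2 and 37.0 in Chd8 neo/-. Both groups without a wild-type allele lay below Chd8 +/+ in every library, by log2 fold changes of -1.03 (SE 0.48, adjusted p = 0.227) and -0.50 (SE 0.47, adjusted p = 0.564) in the edgeR fit, not called. The spread was wide within Chd8 neo/neo, whose replicate 3 was near the Chd8 +/+ level. Without it, Hbb-bs was called lower in Chd8 neo/neo against Chd8 +/+ (log2 fold change -1.80, edgeR adjusted p = 0.019) and against Chd8 +/- (-1.92, 0.0176).

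Of the 2 members outside the globin family, Slc4a1 had a pattern close to that of Hba-x, and Alas2 to those of Hbb-y and Hba-x. Slc4a1 had 90.3, 63.5 and 89.2 CPM in Chd8 +/+, 71.6, 128 and 107 in Chd8 +/-, 131, 101 and 93.5 in Chd8 neo/neo and 124, 214 and 164 in Chd8 neo/-. Both groups without a wild-type allele lay above Chd8 +/+ and edgeR called Chd8 neo/- (log2 fold change 1.04, SE 0.28, adjusted p = 0.0466), but not Chd8 neo/neo (0.42, SE 0.28). Alas2 had 29.7, 24.1 and 32.4 CPM in Chd8 +/+, 25.3, 42.1 and 37.9 in Chd8 +/-, 33.3, 28.4 and 31.7 in Chd8 neo/neo and 34.9, 54.5 and 48.2 in Chd8 neo/-. The Chd8 neo/- libraries of Alas2 lay above those of Chd8 +/+ and of Chd8 neo/neo, without a call by edgeR (log2 fold change 0.67, SE 0.21, adjusted p = 0.078). Across the 12 E12.5 libraries, log2 CPM of Hba-x and Slc4a1 had a Pearson r of 0.98, Alas2 and Slc4a1 0.94, and Hbb-y and Alas2 0.93. Of the pairs of an embryonic and an adult beta chain, Hbb-y had 0.85 with Hbb-bt and 0.36 with Hbb-bs, and Hbb-bh1 had -0.59 with Hbb-bs, as a description over libraries that share the blood content of a dissection.

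The 3 calls in Chd8 neo/- lay close to the threshold. Their log2 fold changes stayed positive in all 20 alternatives tried, from 1.40 to 1.77 for Hbb-bh1, 0.77 to 1.10 for Hba-x and 0.82 to 1.22 for Slc4a1, while the edgeR or DESeq2 adjusted p ranged from 0.000577 to 0.132, from 0.00255 to 0.139 and from 0.00233 to 0.146. No member was called without any one of the 3 Chd8 +/+ libraries, without Chd8 neo/- replicate 2 or 3, without Chd8 +/- replicate 3 or without Chd8 neo/neo replicate 2. Only Hba-x was called without Chd8 neo/neo replicate 1, and Slc4a1 was lost without Chd8 neo/neo replicate 3. Leaving out Chd8 neo/- replicate 1 lost Hbb-bh1 and gained Hbb-y and Alas2. Only Hbb-bh1 was called from either run alone. DESeq2 called 5 members, Alas2 and Hbb-y beside the 3.

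**Figure D4:**
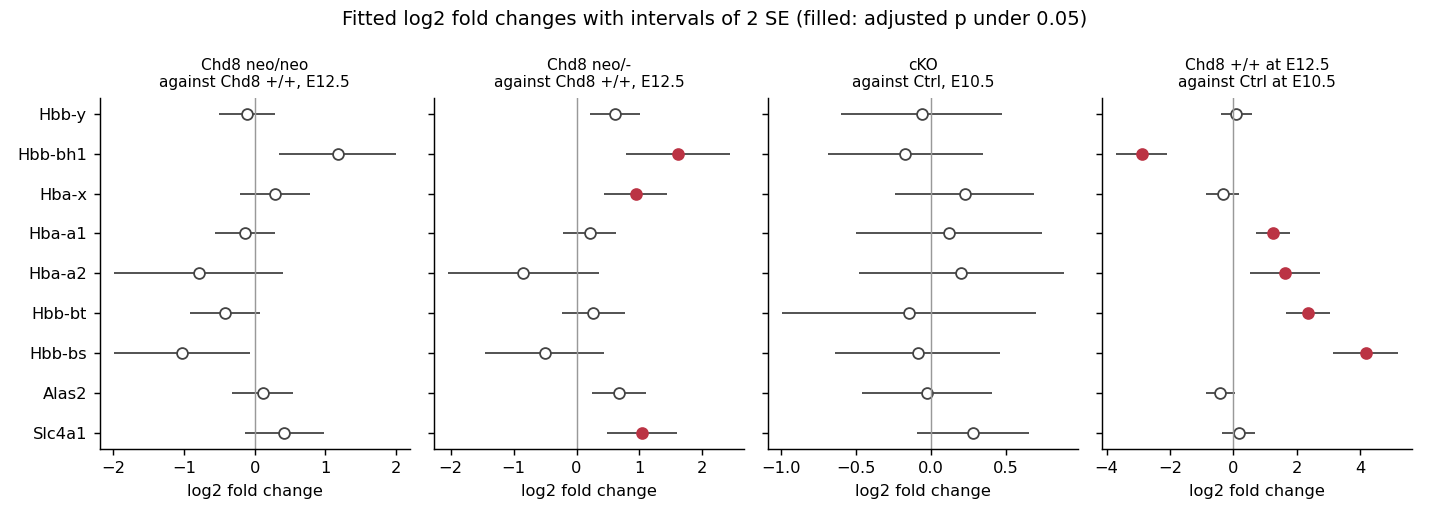
Fitted log2 fold changes of the 9 genes (horizontal) in 4 comparisons, with lines spanning 2 SE to each side and filled points where the edgeR adjusted p was under 0.05. In Chd8 neo/- the filled points are Hbb-bh1, Hba-x and Slc4a1, all above 0. In the stage comparison they are Hbb-bh1, below 0, and the 4 adult chains, above 0.

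The other E12.5 comparisons gave no call by edgeR among the 9 genes. For Chd8 +/- against Chd8 +/+ all 9 pairs of groups overlapped, no member reached an unadjusted p under 0.05 and DESeq2 called 0, where 0.0213% of genes were called and 11.4% did not overlap. For Chd8 neo/neo against Chd8 +/+, 1 member (Hbb-bh1) had an unadjusted p under 0.05 and DESeq2 called it, 5 members did not overlap (Hbb-bh1 and Slc4a1 higher, Hba-a2, Hbb-bt and Hbb-bs lower), and 8.16% of genes were called, with 12.5% higher and 13.5% lower without overlap. For Chd8 neo/neo against Chd8 +/-, Hbb-bt and Hbb-bs had an unadjusted p under 0.05, Hba-a2 and Hbb-bt lay lower without overlap and DESeq2 called 0, where 5.28% of genes were called and 25.5% did not overlap. For Chd8 neo/- against Chd8 neo/neo, 4 members had an unadjusted p under 0.05 (Hbb-y, Hbb-bt, Alas2 and Hba-x), 3 of them, Hbb-y, Hbb-bt and Alas2, lay higher without overlap and DESeq2 called 0, where 0.0159% of genes were called and 15.2% did not overlap. In the test of any difference among the 4 genotypes edgeR called 0 of 9 and DESeq2 5, with 5 unadjusted p under 0.05, where 10.7% of genes were called. That test called Hbb-y without Chd8 neo/- replicate 1 (edgeR adjusted p = 0.0393), and Hbb-bs (0.0361) and Hbb-bh1 (0.0445) without Chd8 neo/neo replicate 3.

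Summed over the 7 globins, Chd8 neo/- had the highest mean. The globins took 0.365, 0.320 and 0.386% of all counts in Chd8 +/+, 0.321, 0.453 and 0.440% in Chd8 +/-, 0.409, 0.341 and 0.361% in Chd8 neo/neo and 0.455, 0.701 and 0.579% in Chd8 neo/-. The 3 Chd8 neo/- values, of which the lowest was 0.455%, were above the highest other E12.5 value, 0.453%. In CPM they were not, since Chd8 neo/- replicate 1 had 4512 CPM and Chd8 +/- replicate 2 had 4549 CPM. On the log2 CPM scale Chd8 neo/- exceeded Chd8 +/+ by 0.66 and Chd8 neo/neo by 0.62, whereas Chd8 neo/neo and Chd8 +/- exceeded Chd8 +/+ by 0.04 and 0.17, less than their pooled SD of 0.14 and 0.22. The exact permutation test over the 4 genotypes gave p = 0.0303 (0.222 adjusted over 40 tests), and 0.0506 without Hba-a1 and Hba-a2. Leaving out 1 library at a time took that p from 0.0121 to 0.112. It passed 0.05 without Chd8 +/+ replicate 1 (0.0571) or 2 (0.0599), Chd8 +/- replicate 3 (0.0551), Chd8 neo/- replicate 2 (0.112) or 3 (0.067), or Chd8 neo/neo replicate 2 (0.0551) or 3 (0.0559), all exact permutation p.

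The balance among the beta chains within each E12.5 embryo was compared next, and no test of it passed after adjustment. Hbb-y was 91.4, 93.3 and 92.8% of the embryonic beta chains in Chd8 +/+, 94.3, 89.3 and 92.8% in Chd8 +/-, 82.1, 78.2 and 90.2% in Chd8 neo/neo and 85.9, 86.1 and 86.3% in Chd8 neo/-. Every embryo of the 2 groups without a wild-type allele was below every Chd8 +/+ embryo, that is, it had more Hbb-bh1 beside its Hbb-y. The 3 Chd8 neo/- embryos lay close together, and those of Chd8 neo/neo spread widely. The adult share of beta globin was 5.18, 5.31 and 4.91% in Chd8 +/+, 5.28, 4.51 and 4.95% in Chd8 +/-, 3.38, 2.30 and 4.48% in Chd8 neo/neo and 3.31, 3.14 and 3.59% in Chd8 neo/-. In the Hbb-y share Chd8 neo/neo overlapped Chd8 +/-, whereas in the adult share Chd8 neo/neo and Chd8 neo/- lay wholly below Chd8 +/+ and Chd8 +/-. The means ± SD were 5.13 ± 0.206, 4.91 ± 0.387, 3.39 ± 1.09 and 3.35 ± 0.223%. The exact permutation test over the 4 genotypes gave p = 0.013 for the adult share and 0.0353 for the Hbb-y share, both 0.222 after adjustment over 40 tests, and pairs of groups cannot go below 0.10. Leaving out 1 library at a time took these p from 0.0026 to 0.0348 and from 0.000584 to 0.0798 (exact permutation p). That of the Hbb-y share was under 0.05 only without Chd8 +/- replicate 2 or Chd8 neo/neo replicate 2 or 3 (0.000584 for the last, exact permutation p), and passed 0.05 without any other 1 library.

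Hbb-bs as a share of the adult beta pair was also compared, a measure added after the values were seen. It was 30.4, 30.5 and 29.8% in Chd8 +/+, 34.7, 23.5 and 29.5% in Chd8 +/-, 16.5, 13.6 and 30.9% in Chd8 neo/neo and 19.2, 19.4 and 21.8% in Chd8 neo/-. The Chd8 neo/- embryos were all below the 3 Chd8 +/+ embryos, and 2 of the 3 Chd8 neo/neo embryos were. The adult share of alpha globin, which rests on Hba-a1 and Hba-a2, was 38.6, 45.0 and 34.5% in Chd8 +/+, 41.4, 32.2 and 26.6% in Chd8 +/-, 22.9, 25.3 and 40.5% in Chd8 neo/neo and 33.5, 17.3 and 22.8% in Chd8 neo/-. Chd8 neo/- lay below Chd8 +/+ in the summed runs (difference -14.8 percentage points), but the difference was -24.5 in run 1 and -5.66 in run 2. The ratio of all alpha to all beta chains, per length, was 0.467, 0.478 and 0.433 in Chd8 +/+ and 0.504, 0.389 and 0.437 in Chd8 neo/-, which overlapped, and without Hba-a1 and Hba-a2 the log2 difference was 0.26 where it was -0.06 with them. Free of those genes, Hba-x per 100 of the embryonic beta chains was 30.2, 27.8 and 29.8 in Chd8 +/+, 26.1, 31.3 and 26.3 in Chd8 +/-, 38.1, 38.1 and 28.4 in Chd8 neo/neo and 34.7, 33.2 and 34.97 in Chd8 neo/-. Chd8 neo/- lay above Chd8 +/+ without overlap, and replicate 3 of Chd8 neo/neo lay within Chd8 +/+.

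Across the 12 E12.5 embryos the balances moved together. The Hbb-y share of embryonic beta globin had a Pearson r of 0.96 and a Spearman rho of 0.94 with the adult share of beta globin (permutation p = 2e-05 and 1e-05, 4e-05 and 4e-05 adjusted over 4 relations), 2 measures that share Hbb-y and Hbb-bh1. With the Hbb-bs share of the adult beta pair, which has no gene in common with it, r was 0.95 and rho 0.90 (permutation p = 1e-05 and 0.00018, 4e-05 and 0.00024 adjusted). The smallest p that 100000 permutations can give is 1e-05. Both relations held without the 2 embryos farthest from the median, Chd8 neo/neo replicates 1 and 2 (r = 0.96 and 0.94), and within genotypes, after subtraction of each group mean (r = 0.94 and 0.96). Those permutations exchange embryos of different genotypes. With embryos exchanged only within genotypes, the exact permutation p was 0.02 and 0.0069 (0.04 and 0.0276 adjusted over 4 relations), where 1296 orders allow no p under 0.00077. The Hbb-y share spread most within Chd8 neo/neo, with an SD of 6.14 percentage points. Its SD was 2.57 in Chd8 +/-, 0.991 in Chd8 +/+ and 0.2 in Chd8 neo/-. The values within genotypes therefore rest mainly on Chd8 neo/neo, and none was taken without that group. The embryo with the highest Hbb-y share was Chd8 +/- replicate 1, which also had the highest Hbb-bs share, and Chd8 neo/neo replicate 2 was lowest in both and in the adult share. The summed globins gave r = -0.26 and rho = -0.44 (permutation p = 0.41 and 0.15, unchanged on adjustment), although r was -0.80 without the same 2 embryos. The Hbb-y share also went with the neuronal genes Tbr1, Neurod6, Dcx and Tubb3, which mark newborn neurons of the neocortex. Their summed CPM was 2128, 2559.8 and 2305 in Chd8 +/+, 2625, 2169.8 and 2277 in Chd8 +/-, 1792, 1878 and 2097 in Chd8 neo/neo and 2079, 1971 and 2230.1 in Chd8 neo/-, and r was 0.85 and rho 0.92 (permutation p = 0.00035 and 8e-05, 0.00047 and 0.00016 adjusted), 0.77 without the 2 farthest embryos and 0.63 within genotypes. Exchanged only within genotypes, the exact permutation p was 0.039, and 0.052 adjusted over 4 relations, so this relation did not pass once genotype was held fixed. These 4 relations and the tests within genotypes were chosen after the values were seen. Other forebrain markers were not set against the Hbb-y share. Of the 13 forebrain markers, edgeR called Pax6 (0.19, SE 0.04, adjusted p = 0.0199) and Sox2 (0.29, SE 0.07, adjusted p = 0.0251) higher in Chd8 neo/neo against Chd8 +/+. Dcx was called lower there (-0.42, SE 0.08, adjusted p = 0.00976), where 8.16% of all genes were called. The exact age of each embryo within the day is not given in the sources used here, and its part in these relations was not tested.

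**Figure D5:**
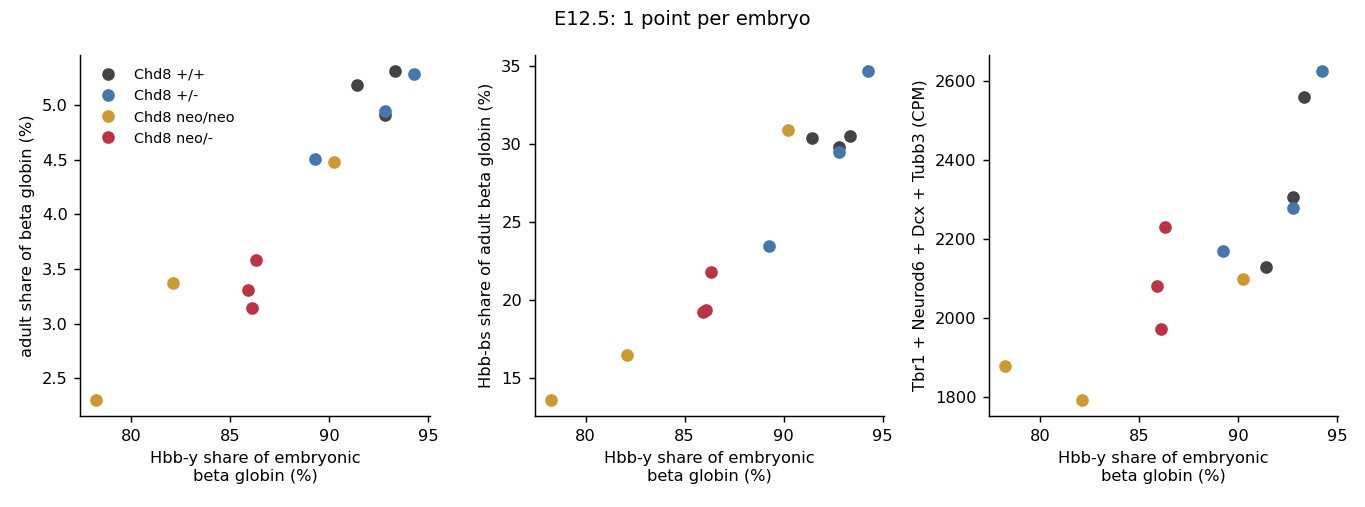
The Hbb-y share of embryonic beta globin (horizontal, percent) against the adult share of beta globin, the Hbb-bs share of adult beta globin (both percent) and the summed CPM of 4 neuronal genes, 1 point per E12.5 embryo, coloured by genotype. The points rise from Chd8 neo/neo replicates 1 and 2 at lower left, through Chd8 neo/-, to Chd8 +/+ and Chd8 +/- at upper right, with Chd8 neo/neo replicate 3 near them and r of 0.96, 0.95 and 0.85.

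At E10.5, deletion of Chd8 in the neuroepithelium gave no call among the 9 genes by edgeR. No member had an unadjusted p under 0.05, DESeq2 called 0 and all 9 pairs of groups overlapped, where 11.4% of the 18435 genes tested were called and 32.2% did not overlap. Hbb-y had 2421, 1431 and 1724 CPM in Ctrl and 2087, 1941 and 1318 in cKO, Hbb-bh1 1424, 908 and 1008 and 1162, 1087 and 720.1, and Hba-x 1389, 894 and 1105 and 1527, 1449 and 989.7. The largest fitted change was that of Slc4a1, with 66.3, 66.8 and 85.4 CPM in Ctrl and 95.7, 103 and 67.2 in cKO (log2 fold change 0.28, SE 0.19, adjusted p = 0.401), which was called without cKO replicate 3 (0.45, edgeR adjusted p = 0.0496). The intervals of 2 SE ran from -0.60 to 0.48 for Hbb-y, from -0.69 to 0.35 for Hbb-bh1 and from -0.24 to 0.69 for Hba-x. The globins together held 0.555, 0.342 and 0.407% of counts in Ctrl and 0.504, 0.462 and 0.313% in cKO. The adult share of beta globin (0.651, 0.375 and 0.640% and 0.545, 0.522 and 0.648%) and of alpha globin (17.7, 15.5 and 15.5% and 16.4, 15.3 and 15.1%) overlapped. Since replicates here are pools of 2 embryos, differences between single embryos are averaged in part.

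Ratios within the E10.5 libraries were far tighter than the levels, and 2 of them separated the groups. The Hbb-y share of embryonic beta globin was 61.2, 59.4 and 61.4% in Ctrl and 62.5, 62.4 and 63.0% in cKO. The cKO values were all higher, by a mean of 1.95 percentage points. The ratio of alpha to beta chains was 0.299, 0.308 and 0.326 in Ctrl and 0.384, 0.385 and 0.390 in cKO, a log2 difference of 0.31 with a pooled SD of 0.05. Both groups of pools lay apart, at the smallest exact permutation p that 3 against 3 allow (0.10, two-sided, 0.222 adjusted over 40 tests). Hba-x, without the adult alpha genes, lay apart as well. Per 100 of the embryonic beta chains it stood at 24.8, 26.2 and 27.7 in Ctrl and 32.2, 32.8 and 33.3 in cKO. The genotype of the Ctrl pools (Chd8 f/f or Chd8 f/+) is not given per library.

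Other erythroid genes in Chd8 neo/- against Chd8 +/+ were read against the same background of 11.5% called. Of haem synthesis genes, 7 higher and 0 lower of 14 tested were called by edgeR, with a median log2 fold change of 0.33. They included Uros (0.50, SE 0.06, adjusted p = 0.000163) and Slc25a38 (0.38, SE 0.05, adjusted p = 0.000511), which take part in haem synthesis or the supply of its glycine in many tissues. Of genes for the red cell membrane and its skeleton, 6 higher and 1 lower of 17 were called, among them Ank1 (0.83, SE 0.18, adjusted p = 0.0144), Sptb (1.26, SE 0.32, adjusted p = 0.0369) and Rhag (1.24, SE 0.32, adjusted p = 0.0321), encoding ankyrin, beta spectrin and the Rh-associated glycoprotein. Add2, an adducin that neurons also use, was the one called lower (-0.16, SE 0.05, adjusted p = 0.041). Of erythroid transcription factors, 1 higher and 0 lower of 12 were called. It was Klf1, the activator of adult beta globin, at 1.13 (SE 0.32, adjusted p = 0.0433). Of signalling, iron and other erythroid genes, 4 higher and 0 lower of 11 were called, among them Car2 (1.22, SE 0.25, adjusted p = 0.0168), carbonic anhydrase 2, Blvrb (0.68, SE 0.15, adjusted p = 0.00995), a biliverdin reductase, and Fech (0.47, SE 0.12, adjusted p = 0.0263), ferrochelatase, which is counted among the haem genes too. Leaving out 1 library at a time, the calls ranged from 4 to 8 for the haem genes, from 0 to 10 for the membrane genes, from 0 to 4 for the factors and from 1 to 6 for the last group, with 1015 to 2574 calls over all genes. The membrane genes dropped to 0 calls without Chd8 +/+ replicate 2, to 1 without Chd8 +/+ replicate 1 or 3 or Chd8 neo/- replicate 2, to 2 without Chd8 neo/- replicate 3, and to 3 or 4 without Chd8 +/- replicate 3, Chd8 neo/- replicate 1 or Chd8 neo/neo replicate 1 or 2. More than 1 factor was called without Chd8 +/- replicate 1 or 2, Chd8 neo/- replicate 1 or Chd8 neo/neo replicate 3, and no factor was called without Chd8 +/- replicate 3, Chd8 neo/- replicate 2 or 3 or any 1 Chd8 +/+ library. The haem genes numbered 4 calls without Chd8 neo/- replicate 2, and the signalling and iron genes 1 or 2 without Chd8 neo/- replicate 2 or 3 or any 1 Chd8 +/+ library.

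Beside the alpha globins, Mpg (0.31, SE 0.08, adjusted p = 0.0208) and Snrnp25 (0.24, SE 0.07, adjusted p = 0.0294), widely expressed genes upstream of Hba-x, were called higher among 4 flanking genes tested, and Hbq1b, an alpha-type theta globin, was higher at 1.25 (SE 0.31, adjusted p = 0.0214), the only one called of the globins outside the 9. Both counts are by edgeR.

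In Chd8 +/- against Chd8 +/+, where 0.0213% of all genes were called, edgeR called 0 of the 14 haem, 17 membrane, 12 factor and 11 signalling and iron genes, of which 3 haem genes and no other had an unadjusted p under 0.05. In Chd8 neo/neo against Chd8 +/+, where 8.16% of all genes were called, 4 higher and 0 lower of 14 haem genes were called, including Slc25a39 (0.23, SE 0.05, adjusted p = 0.0115), and 0 of 17 membrane genes, 0 of 12 factors and 0 of 11 of the signalling and iron genes by edgeR, with 3, 1 and 3 unadjusted p under 0.05. Their median log2 fold changes were 0.39, 0.02 and 0.25. In cKO against Ctrl, where 11.4% of all genes were called, 2 higher and 0 lower of 14 haem genes (Alad at 0.35, SE 0.06, adjusted p = 0.00417, and Slc25a39 at 0.30, SE 0.05, adjusted p = 0.00684), 1 higher and 0 lower of 17 membrane genes (Dmtn at 0.45, SE 0.09, adjusted p = 0.0119), 0 of 12 factors and 0 of 11 signalling and iron genes were called by edgeR, the last 2 with 2 and 1 unadjusted p under 0.05. From E10.5 to E12.5 in control tissue, where 34.0% of all genes were called higher and 35.9% lower, 0 higher and 11 lower of 14 haem genes were called, among them Tmem14c (-1.04, SE 0.08, adjusted p = 1.59e-09). Of the 12 factors, 5 were higher and 4 lower. Bcl11a (2.84, SE 0.19, adjusted p = 1.04e-08) and Sox6 (0.97, SE 0.08, adjusted p = 7.33e-09), which repress embryonic globins in red cells and are also neural genes, were higher, as was Myb (0.73, SE 0.09, adjusted p = 4.39e-07), a factor of blood progenitors. Gata1 (-1.94, SE 0.31, adjusted p = 3.55e-05), Klf1 (-1.87, SE 0.32, adjusted p = 9.3e-05) and Gfi1b (-1.26, SE 0.25, adjusted p = 0.000187) were lower. Of 17 membrane genes 4 were higher, with Add2 at 3.02 (SE 0.10, adjusted p = 1.9e-13), and 7 lower, with Rhag at -1.32 (SE 0.29, adjusted p = 0.000815). Of 11 signalling and iron genes 1 was higher, Bpgm (0.43, SE 0.09, adjusted p = 0.000207), and 7 lower, among them Epor (-1.66, SE 0.25, adjusted p = 1.33e-05), the erythropoietin receptor, and Tfrc (-1.38, SE 0.16, adjusted p = 1.91e-06), the transferrin receptor. Hbb-bh2, a beta-type embryonic gene outside the 9, fell with Hbb-bh1 (-2.35, SE 0.58, adjusted p = 0.00145), but from a low level. The 6 globins outside the 9, Hbb-bh2 among them, summed to 3.54 to 4.31 CPM in Ctrl and 5.66 to 6.55 CPM in Chd8 +/+. Cygb, cytoglobin, was the only 1 of them called higher (1.62, SE 0.20, edgeR adjusted p = 6.52e-07). Hbb-bh2 did not pass the count filter of the E12.5 fit.

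Genes outside the 9 were ranked by the Pearson r of their log2 CPM with the log2 summed globins over the 12 E12.5 libraries, among 18153 genes with a mean of at least 10 counts. The nearest was Fech (0.99, 33.7 to 59.8 CPM), then Pdzk1ip1 (0.97), Nudt4 (0.95), Trim10 (0.95), Nfe2 (0.93), Epb42 (0.93), Cited4, Cd59a, Gpx1 and Car2 (the last 0.92). Over the 6 E10.5 libraries the same r was 0.73 for Fech, 0.85 for Pdzk1ip1 and 0.94 for Car2, but -0.07 for Nudt4 and -0.27 for Cd59a. The list includes Nfe2, an erythroid transcription factor, and Epb42, protein 4.2 of the red cell skeleton. Of the members, Alas2 (0.97), Hbb-y (0.95), Hba-x (0.94) and Slc4a1 (0.94) followed the sum, Hbb-bh1 (0.74) and Hbb-bt (0.69) less, and Hba-a1 (0.24), Hbb-bs (0.08) and Hba-a2 (-0.66) least. The globins are part of the sum, so their own values are raised by it. At E10.5, where their runs agree, Hba-a1 and Hba-a2 had an r of 0.98 and 0.95 with the sum, and Hbb-bs 0.71. Set against the summed globins, the Alas2 values of the groups overlapped. Alas2 stood at 0.825, 0.746 and 0.824 CPM per 100 CPM of summed globins in Chd8 +/+ and 0.776, 0.782 and 0.837 in Chd8 neo/-. Slc4a1 on that scale was 2.504, 1.96 and 2.27 in Chd8 +/+, 2.21, 2.82 and 2.405 in Chd8 +/-, 3.22, 2.93 and 2.63 in Chd8 neo/neo and 2.75, 3.07 and 2.85 in Chd8 neo/-, where both groups without a wild-type allele lay above Chd8 +/+ and overlapped Chd8 +/-.

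Other cell types of vessels and blood were measured beside the globins. In Chd8 neo/- against Chd8 +/+, 0 of 15 endothelial markers, 0 of 10 platelet markers and 0 of 12 mesenchyme and pericyte markers were called by edgeR, with 4, 1 and 0 unadjusted p under 0.05. Of 14 macrophage markers, 1 was called, Lyve1 (0.59, SE 0.17, adjusted p = 0.0339). Dcx was the only one of 13 forebrain markers called (-0.34, SE 0.08, adjusted p = 0.0174). The summed CPM of the 15 endothelial markers was 382 to 391 in Chd8 +/+, 341 to 361 in Chd8 +/-, 346 to 382 in Chd8 neo/neo and 383 to 425 in Chd8 neo/-, and that of the 10 platelet markers was 27.5 to 33.7, 19.3 to 26.9, 20.2 to 25.1 and 23.4 to 30.4. The 14 macrophage markers summed to 64.0 to 71.9, 62.2 to 68.8, 52.6 to 69.5 and 62.6 to 76.9 CPM. No marker of these 3 lists was at 0 in any library. The sums of all 3 lists overlapped between Chd8 neo/- and Chd8 +/+. In that comparison the log2 fold change was above 0 for 13 of 15 endothelial, 1 of 10 platelet and 6 of 14 macrophage markers. The medians were 0.07, -0.21 and -0.006. The part of these lists in the globin difference was not tested. In Chd8 +/- against Chd8 +/+ edgeR called none of them, with 6 endothelial, 5 platelet and 0 macrophage markers at an unadjusted p under 0.05, and in Chd8 neo/neo it called Kdr (-0.17, SE 0.04, adjusted p = 0.0236). The edgeR test of any difference among the 4 genotypes called 4 of 15 endothelial, 2 of 10 platelet and 0 of 14 macrophage markers. That test called 10.7% of all genes. Egfl7, an endothelial marker, was called higher in Chd8 neo/neo against Chd8 +/- (0.28, SE 0.07, adjusted p = 0.0349), where 5.28% of genes were called. In cKO against Ctrl, 3 of 11 mesenchyme and pericyte markers were called higher by edgeR, where 11.4% of all genes were called. They were Col1a2 at 0.40 (SE 0.08, adjusted p = 0.013), Pdgfrb at 0.44 (SE 0.10, adjusted p = 0.022) and Col3a1 at 0.44 (SE 0.10, adjusted p = 0.0271). The 12 listed markers summed to 777 to 861 CPM in Ctrl and 954 to 1140.2 in cKO, with Kcnj8 at 0 in 3 of the 6 libraries. Of 10 platelet markers 1 was called, Pf4, which was lower (-0.61, SE 0.13, adjusted p = 0.0153), while 4 had an unadjusted p under 0.05, 1 had a log2 fold change above 0 and the median was -0.45. Of 15 endothelial markers 2 were called. The endothelial markers Cdh5 (0.25, SE 0.07, adjusted p = 0.0484) and Mfsd2a (-0.29, SE 0.08, adjusted p = 0.0368) moved in opposite directions. Of 14 macrophage markers Cx3cr1 alone was called, and was higher (0.48, SE 0.11, adjusted p = 0.0162). Their part in the E10.5 ratios was not tested.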

How the data were processed

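RNA-seq of 18 libraries, 12 of E12.5 neocortex and 6 of E10.5 telencephalic vesicles, each sequenced in 2 runs, was used. Per the labels and methods, mRNA was selected and read pairs were trimmed with Trim Galore 0.4.1, aligned to GRCm38 with TopHat2 2.1.0 and counted per gene with featureCounts 1.5.0. The authors deposited whole-number counts per gene and run, not normalized. The E12.5 header shows counting by fragment with neither multi-mapping reads nor strand used, so reads of near-identical genes and of overlapping genes on opposite strands are lost or cannot be told apart. The settings of the E10.5 counting are not given in the sources used here.

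Counts of both runs were summed, giving 38774591 to 68488879 per library. Genes were tested across the whole table with edgeR 4.0.16 (R 4.3.3; trimmed-mean scaling, filterByExpr, robust quasi-likelihood), with Benjamini-Hochberg adjustment over all genes. All 12 E12.5 libraries entered one fit, the 6 E10.5 libraries another, and all 18 the stage comparison. DESeq2 1.42.0 was an alternative, with other scalings, no filter, single runs, left-out libraries and the replicate number as a block. Both tests recovered large changes set in simulated counts of well-covered genes. The spread set there was smaller than that of several members. The simulation thus does not show how well changes in those members are found. The sums and ratios of globins, 1 value per library, were compared by exact two-sided permutation tests. Levels are CPM, per kilobase where genes are set side by side. Replicates came from different litters, so p-values measure the spread between them within a genotype. The study's crosses differed by genotype. Chd8 neo/neo came from intercrosses of Chd8 neo/+ mice, Chd8 neo/- from Chd8 neo/+ with Chd8 +/-, and Chd8 +/- from Chd8 +/- with C57BL/6J. The sources used here do not give the cross of each Chd8 +/+ library. Genotype therefore cannot be told apart from cross.

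The 9 genes and the gene lists were chosen with earlier results of these data known. Of each list, up to 3 genes called in each direction with the smallest adjusted p are named, and the 10 genes outside the 9 most correlated with the summed globins. The unique 75-base windows, the sums without Hba-a1 and Hba-a2, the relations across embryos with their tests within genotypes, and the list counts under each setting were added after the data were seen. Ahsp and Rhex were not analysed here, and some listed genes that the rule would name are not reported here. Same-numbered Chd8 neo/neo and Chd8 +/- libraries deviated together, with correlations of 0.11, 0.20 and 0.20 (replicates 1, 2 and 3) across genes, and the block left that comparison at 0 members called. In other comparisons such correlations reached -0.27 (Chd8 neo/neo against Chd8 +/+, replicate 3) and -0.18 (Chd8 +/- against Chd8 +/+, replicate 1).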

Additional observations from a re-analysis of the deposited data

How the results depend on the processing

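With DESeq2 the number of members called was 1 for Chd8 neo/neo against Chd8 +/+ (Hbb-bh1), 5 for Chd8 neo/- against Chd8 +/+ and 5 among the 4 genotypes, where edgeR called 0, 3 and 0. The 3 calls in Chd8 neo/- became 0 with no filter on low counts, where more genes share the adjustment, 0 with the replicate number as a block, and 1 (Hbb-bh1) from run 1 or run 2 alone. Replicate numbers did not pair these libraries, whose same-numbered deviations had correlations from -0.06 to 0.06. Leaving out 1 library at a time gave 0 to 4 members for Chd8 neo/- against Chd8 +/+, 0 to 1 for Chd8 neo/neo against Chd8 +/+ and against Chd8 +/-, 0 to 2 among the 4 genotypes and 0 to 1 for cKO against Ctrl. The stage comparison called 3 members from run 2 alone. In the fit of Chd8 neo/- against Chd8 +/+, the erythroid factors called went from 1 to 5 with DESeq2, to 6 with only these 2 groups in the fit and to 0 with no filter. The membrane genes went from 7 to 2 with no filter and to 1 with the block, and the signalling and iron genes from 4 to 7 with the 2 groups alone and to 2 with no filter.

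The F statistic of the summed globins over the 4 genotypes was 4.50 without Hba-a1 and Hba-a2, and 2.95 to 8.76 with 1 library left out, and that of the Hbb-y share was 3.64 to 24.9. For the adult share of beta globin, the difference in percentage points per unique 75-base window was -3.46 (Chd8 neo/neo) and -3.52 (Chd8 neo/-) against Chd8 +/+, -3.03 for Chd8 neo/neo against Chd8 +/- and 9.35 between stages. From counts not divided by length it was -2.08 for Chd8 neo/- and 5.20 between stages. For the adult share of alpha globin it was -24.5 (run 1) and -5.66 (run 2) for Chd8 neo/- against Chd8 +/+, -14.3 against Chd8 neo/neo in run 1, and 29.03 between stages per unique window. The stage difference of the Hbb-y share was 30.6 from undivided counts.

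The log2 ratio of alpha to beta chains moved most. Against Chd8 +/+ it was 0.27 (without Hba-a1 and Hba-a2) and -0.22 (per unique window) for Chd8 neo/neo, and -0.23 (run 1), 0.12 (run 2), 0.26 (without) and -0.50 (per unique window) for Chd8 neo/-. It was 0.078 for Chd8 neo/neo against Chd8 +/- per unique window, and -0.27 (run 1), 0.036 (run 2) and -0.28 (per unique window) for Chd8 neo/- against Chd8 neo/neo. Between stages it was 0.63, 0.48, 0.45 from undivided counts, 0.092 without and 1.10 per unique window. Where an alternative does not itself name the cause, the cause was not tested. Beyond these, 176 of 203 values of the globin measures under other settings kept their side of the threshold or moved by less than the pooled SD. With 1 library left out, 254 of 270 did, but that count does not measure stability for pairs of groups. Leaving out 1 of 3 libraries always shifts a group mean by less than the pooled SD, so no pair could change under this rule. The 16 values that changed were all from the tests over all E12.5 genotypes, where the exact permutation p rose above 0.05. With 3 libraries a group, no pair of groups could pass 0.05 in the exact tests, and the shared sequence of the adult globins limits their levels.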
